A study of Mus musculus with 4 samples.

Results

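The genes described here are the mouse proteasome genes, taken as all gene symbols of the deposited feature table that start with Psma, Psmb, Psmc, Psmd, Psme or Psmg followed by a number, without pseudogenes. The rule found 49 of 32285 genes. Of these, 3 are the immunoproteasome genes Psmb8, Psmb9 and Psmb10, and 46 are the rest. The 46 comprise 7 α subunits of the 20S core (Psma1 to Psma7), 7 constitutive β subunits (Psmb1 to Psmb7), the testis form Psma8, the thymus form Psmb11 and 4 core assembly chaperones (Psmg1 to Psmg4). They also comprise 6 ATPases of the 19S cap (Psmc1 to Psmc6), 11 other cap subunits, 3 cap assembly chaperones (Psmd5, Psmd9, Psmd10) and 4 activators (Psme1 to Psme4). The last members are Psme2b, a retrocopy of Psme2 whose reads may be shared with its parent gene, and Psmc3ip, a recombination factor that matches the rule by name and is no subunit.

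The data are 4 fresh-frozen mouse liver sections measured on spatial arrays, in which barcoded poly-A capture spots under the tissue record a UMI (unique molecule) count per gene. The sections came from 2 liver cancer models. STAM is a metabolic model of hepatocellular carcinoma that mimics MASH with type I diabetes, with sections at 16 and 20 weeks (STAM16w, STAM20w), and DEN+CCl4 is a fibrotic model with DNA damage, with sections at 22 and 30 weeks (DEN22w, DEN30w). Each model had 2 sections and each time point 1, so model and time cannot be told apart, no untreated liver was analysed here, and strain, sex, number of animals, doses and what the weeks count from are not given in the sources used here. The p-values below measure the spread between these sections, and the sources do not say that they came from separate animals.

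The proteasome degrades ubiquitin-tagged proteins. Its 20S core is a barrel of α and β rings whose proteolytic sites lie on Psmb5, Psmb6 and Psmb7, and its 19S cap binds, unfolds and feeds in the substrate. Interferon induces Psmb8, Psmb9 and Psmb10, which replace Psmb5, Psmb6 and Psmb7 in newly built immunoproteasomes, and the activator subunits Psme1 and Psme2. These complexes shape the peptides that Tap1 and Tap2 carry to MHC class I molecules.

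The promoters of the immunoproteasome genes and of Psmb5 are shown because the results turn on how the first group moved apart from the second. Each is the 250 bases before the RefSeq transcript start (GRCm38.p6, the assembly also called mm10), 5′ to 3′ on the gene's strand, with matches to either of 2 motifs in capitals. The windows are chr17:34197945-34198194 on the plus strand for Psmb8, chr17:34187331-34187580 on the minus strand for Psmb9, chr8:105938393-105938642 on the minus strand for Psmb10 and chr14:54617996-54618245 on the minus strand for Psmb5.
Psmb8: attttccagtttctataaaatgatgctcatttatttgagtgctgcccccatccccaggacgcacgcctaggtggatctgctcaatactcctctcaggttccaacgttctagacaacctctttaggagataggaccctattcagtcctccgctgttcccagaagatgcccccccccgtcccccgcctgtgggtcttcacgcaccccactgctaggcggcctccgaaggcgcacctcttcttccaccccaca
Psmb9: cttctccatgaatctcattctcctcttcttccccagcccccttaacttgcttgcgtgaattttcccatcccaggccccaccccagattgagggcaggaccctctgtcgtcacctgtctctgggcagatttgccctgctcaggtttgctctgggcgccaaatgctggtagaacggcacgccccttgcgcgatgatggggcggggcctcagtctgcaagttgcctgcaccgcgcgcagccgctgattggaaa
Psmb10: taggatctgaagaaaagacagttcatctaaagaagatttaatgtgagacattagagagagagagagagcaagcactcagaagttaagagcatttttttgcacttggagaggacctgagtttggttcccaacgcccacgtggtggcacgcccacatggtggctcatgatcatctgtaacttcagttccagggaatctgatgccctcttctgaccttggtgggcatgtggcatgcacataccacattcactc
Psmb5: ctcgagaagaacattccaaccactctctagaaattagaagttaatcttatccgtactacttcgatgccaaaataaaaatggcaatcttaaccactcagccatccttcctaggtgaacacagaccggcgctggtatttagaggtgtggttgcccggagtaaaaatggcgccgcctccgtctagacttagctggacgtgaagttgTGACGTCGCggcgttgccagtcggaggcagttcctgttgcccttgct
The motifs were the antioxidant response element core, TGACNNNGC, which reads GCNNNGTCA on the other strand, and the interferon-stimulated response element core, AAANNGAAA, which reads TTTCNNTTT there. The former was present in 5 of the 41 members with a promoter in the table (12.2%; Psmb5, Psmb6, Psmc6, Psmd9 and Psmd12), against 11.52% of 27025 genes. The latter was present in 4 of 41 (9.76%; Psmb3, Psmd4, Psmd9 and Psmd11), against 10.79% of all. Neither was found in the windows of Psmb8, Psmb9 or Psmb10, which says nothing of other letters or of sequence outside them. Psmb8 (chr17:34198195-34201454) and Psmb9 (chr17:34182030-34187330) are neighbours in the annotation, with Tap1 between them (chr17:34187556-34197225), and the Psmb9 window reaches into the first bases of Tap1.

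The 4 sections kept 2080 to 2968 spots and 20700642 to 40008457 UMIs each. Median depth per spot was 9711.5 and 12761 UMIs in the earlier and later STAM section and 7302.5 and 9423 UMIs in the earlier and later DEN+CCl4 section. A spot covers several cells, so more cells of a type and more RNA per cell cannot be told apart in any value below. Array positions are shared by slide design, and 1133 of the 3996 barcodes occurred in all 4 sections. Markers of hepatocytes were abundant in every section, with 5 genes summing to 30542 to 72159 CPM (a gene's UMIs scaled to a section total of 1000000), against 421 to 898 CPM for 10 leukocyte markers and 2.0 to 4.8 CPM for 5 T and NK cell markers. Counting intervals cover counting error alone. A UMI count also depends on how well a transcript's poly-A end is captured, so levels are compared for the same gene across sections or spots, and not between genes.

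Proteasome transcripts made up 0.428 and 0.531% of all UMIs in the STAM sections (16 and 20 weeks) and 0.362 and 0.383% in the DEN+CCl4 sections (22 and 30 weeks), with a median of 41, 66, 27 and 37 member UMIs per spot. Both STAM sections lay above both DEN+CCl4 sections in this share. The 20S α subunits summed to 987 and 1216 CPM in STAM16w and STAM20w and to 768 and 805 CPM in DEN22w and DEN30w. The constitutive β subunits summed to 1182, 1521, 992 and 1031 CPM in the same order, and the 19S ATPases to 575, 680, 500 and 518 CPM. The activators differed less, at 324, 362, 307 and 326 CPM. The models did not overlap in the sums of the core subunits and of the ATPases, while for the activators DEN30w exceeded STAM16w. Psma8, Psmb11, Psme2b and Psmc3ip stayed below 3 CPM in every section, and Psmb11, the thymus subunit, had 1 UMI in DEN22w and none elsewhere.

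**Figure D1:**
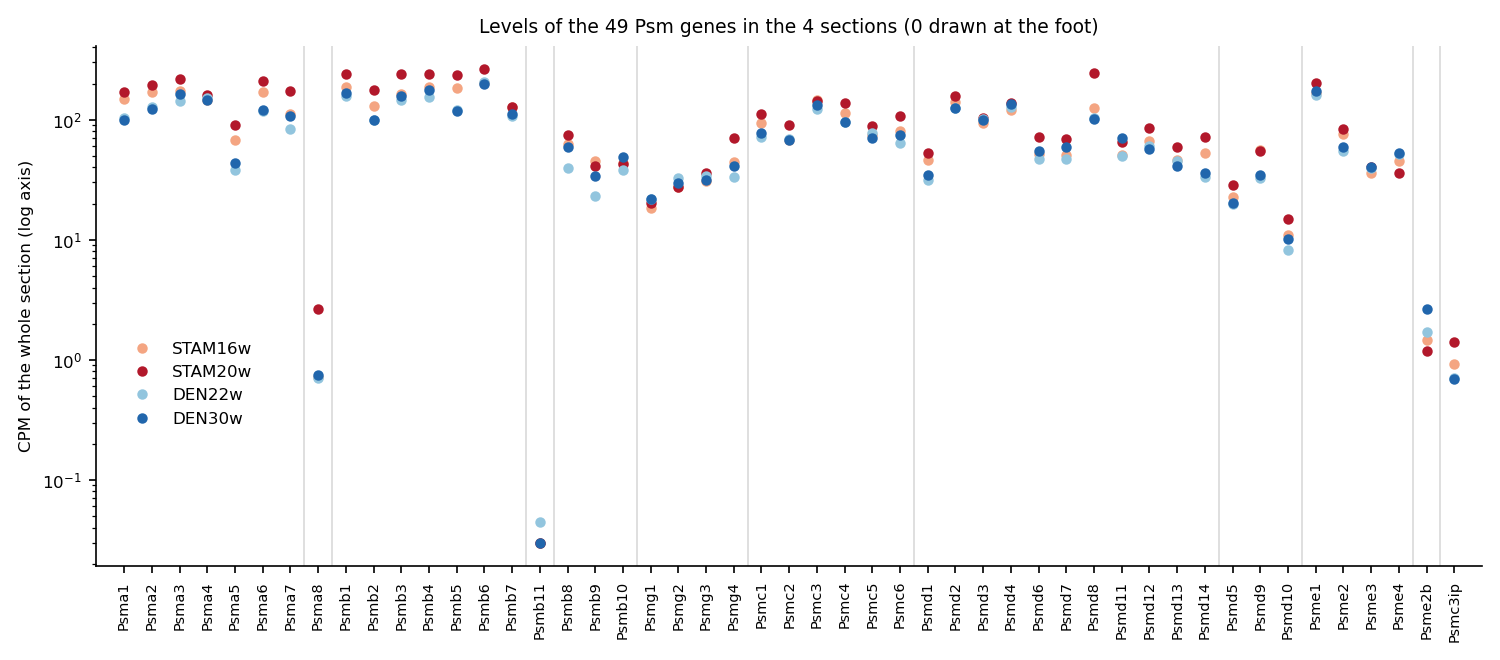
Level of each of the 49 genes in each section, in CPM on a log axis, grouped by role with grey lines between roles; values of 0 are drawn at the foot. STAM20w was the highest section for most core and cap subunits (Psmd8 at 243 CPM), while Psmb8 and Psmb9 were lowest in DEN22w (39.6 and 23.0 CPM).

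The first comparison asked how proteasome genes differed between the metabolic and the fibrotic model. Core and cap genes were mostly higher in STAM: 30 of the 48 members tested had both STAM sections above both DEN+CCl4 sections, where 18.5% of all tested genes did, and 4 (Psme4, Psmg1, Psmg2 and Psme2b) had both below, where 39.2% did. With 2 sections a group no member passed edgeR's quasi-likelihood test (0 of 48 at an adjusted p under 0.05, 21 of 48 at an unadjusted p under 0.05). Of all 14417 genes, 3305 had an unadjusted p under 0.05, 0.291% were called higher and 0.146% lower. DESeq2 called 10 of 48 members, all higher in STAM, where it called 901 of 14417 genes higher and 616 lower. The median log2 fold change of the 45 tested members outside the immunoproteasome was 0.53, against -0.0016 over all genes. Without a scaling factor these medians were 0.37 and -0.17, so the members' distance from the rest stayed similar. The fold changes ran from -0.55 for Psme2b (edgeR adjusted p = 0.452) to 1.39 for Psma8 (edgeR adjusted p = 0.258), both from few counts.

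Among core subunits, Psma5, an α subunit, had 67.6 and 90.2 CPM in STAM16w and STAM20w and 38.2 and 43.9 CPM in DEN22w and DEN30w. Its 2 groups did not overlap, and its log2 fold change was 1.11 (SE 0.20, edgeR adjusted p = 0.078). Psmb5, which carries the chymotrypsin-like site, had 183 and 234 CPM in STAM and 121 and 118 CPM in DEN+CCl4 (log2 fold change 0.97, SE 0.23, edgeR adjusted p = 0.101). The other constitutive proteolytic genes stood closer to equal. Psmb6 had 204, 264, 206 and 199 CPM, in the order STAM16w, STAM20w, DEN22w and DEN30w, and its groups overlapped. Psmb7 had 127, 127, 107 and 112 CPM, without overlap but with an edgeR adjusted p of 0.312. Of the 3 constitutive proteolytic genes, Psmb5 thus had the widest gap between models, while Psmb6 and Psmb7 differed by 0.37 and 0.39 on the log2 scale.

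In the cap, Psmd14, the deubiquitinase that removes the ubiquitin chain, had 53.0 and 71.9 CPM in STAM and 33.3 and 35.8 CPM in DEN+CCl4 (log2 fold change 1.02, SE 0.20, edgeR adjusted p = 0.086). Psmd9, a chaperone of cap assembly, had 55.7 and 54.6 CPM against 33.0 and 34.6 CPM (log2 fold change 0.88, SE 0.19, edgeR adjusted p = 0.094). Neither overlapped between models. Psmd8, a lid subunit, had 125 CPM in STAM16w and 243 CPM in STAM20w against 103 and 102 CPM in DEN+CCl4, so that its difference came mostly with 1 section (log2 fold change 0.99, SE 0.32, edgeR adjusted p = 0.157).

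The activators differed among themselves. Psme1 and Psme2 form the interferon-inducible 11S ring: Psme1 had 167, 203, 161 and 173 CPM, overlapping between models, and Psme2 had 76.2, 83.2, 54.8 and 59.8 CPM (log2 fold change 0.65, edgeR adjusted p = 0.132). Psme3, the nuclear activator, had 35.9 to 40.3 CPM throughout. Psme4, known for histone turnover, had 45.0 and 36.0 CPM in STAM and 51.9 and 53.3 CPM in DEN+CCl4 (log2 fold change -0.20, edgeR adjusted p = 0.642), the opposite order from most subunits.

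Of the immunoproteasome genes, Psmb8 had 62.6, 74.4, 39.6 and 59.1 CPM (log2 fold change 0.65, SE 0.23, edgeR adjusted p = 0.175). Psmb9 had 45.3, 41.0, 23.0 and 34.1 CPM (0.78, SE 0.24, edgeR adjusted p = 0.141). For both genes the groups did not overlap, with DEN22w far below the other sections. Psmb10 had 43.8, 42.8, 37.9 and 48.5 CPM, with DEN30w the highest section (log2 fold change 0.18, SE 0.20, edgeR adjusted p = 0.615). Together the 3 genes gave 22.77% (95% Clopper-Pearson interval 22.07 to 23.48%) and 20.22% (19.78 to 20.67%) of the UMIs of the 6 proteolytic genes in the earlier and later STAM section. In the earlier and later DEN+CCl4 section they gave 18.82% (18.13 to 19.53%) and 24.82% (24.22 to 25.43%). The lowest and highest shares were those of the 2 DEN+CCl4 sections, so the share did not separate the models.

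Genes that work with the proteasome but lie outside the name rule gave no calls between models. Of 8 partners (among them the ubiquitin receptor Adrm1 and the maturation factor Pomp), 0 passed, with a median log2 fold change of 0.41, and Adrm1 had the value nearest the threshold, 1.28 (edgeR adjusted p = 0.080). None of 6 regulators of proteasome genes, such as Nfe2l1 (median -0.03), of 13 ubiquitin and shuttling genes (0.25) or of 11 MHC class I processing genes (-0.10) passed. In this comparison 18 interferon-induced genes had a median of 1.23 and 5 hepatocyte genes one of -0.66, also with 0 calls. Their part in the members' values was not tested.

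**Figure D2:**
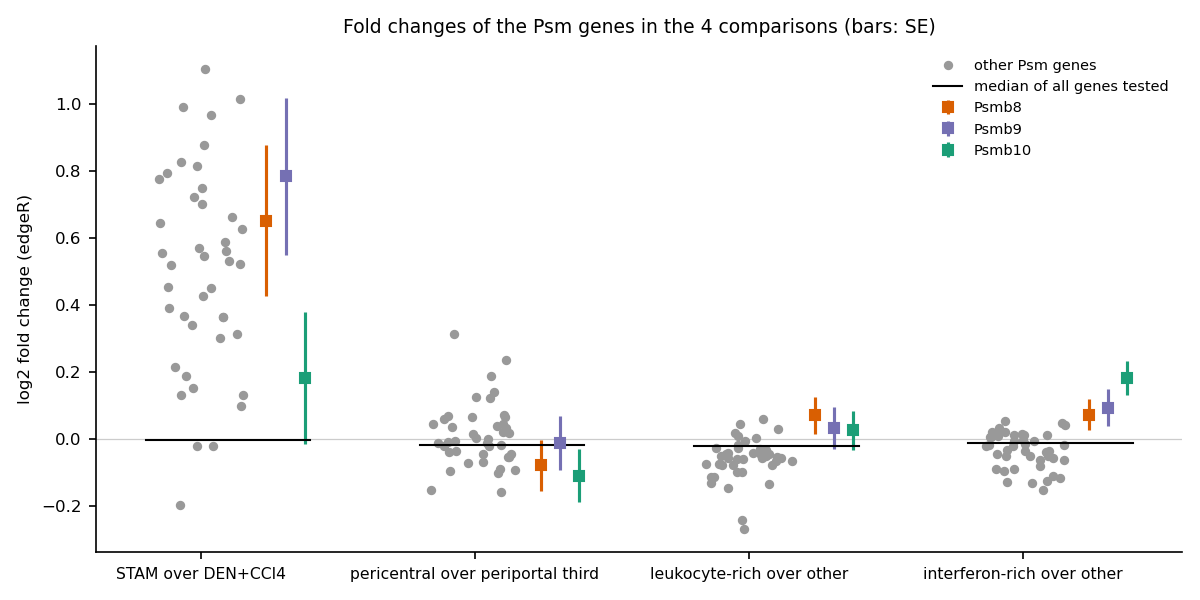
log2 fold change (edgeR) of each member in the 4 comparisons, with Psmb8, Psmb9 and Psmb10 as squares with SE bars, the other members as grey points and the median of all genes as a black line; Psma8, Psmb11, Psmc3ip and Psme2b are left out for their few counts. In the model comparison the members lie mostly above the median of all genes, while in the spot comparisons they lie within about 0.3 of 0.

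The next comparison set the later section of each model beside the earlier one. With 1 section per time it has no replicate check and no p-value, and a gene was counted from a 1.5-fold difference where its higher level was at least 20 CPM. In STAM, 3 of 44 members were higher at 20 weeks (17.4% of genes were), namely Psmd8 by 1.95-fold, Psmg4, a core assembly chaperone, by 1.60-fold and Psma7, an α subunit, by 1.55-fold, and 0 were lower (8.2% of genes were). The median log2 difference was 0.30 for members outside the immunoproteasome and 0.16 for all genes, and with TMM-scaled totals Psmd8 alone passed. Psmb5 and Psmb6 were 1.28- and 1.29-fold higher, while Psmb9 and Psmb10 were at 0.905 and 0.978 of their earlier level. Psmb8 was 1.19-fold higher, so the immunoproteasome genes together changed little, from 152 to 158 CPM.

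In DEN+CCl4 the order was the other way round. The immunoproteasome sum was 100.4 CPM at 22 weeks and 142 CPM at 30 weeks, whereas Psmb5, Psmb6 and Psmb7 summed to 433 and 429 CPM. No member reached 1.5-fold in either direction (0 of 44 each; 6.4% of genes were higher and 2.96% lower). The 2 largest folds among the 44 members were those of Psmb8, 1.49 (95% counting interval of its log2 value 0.46 to 0.69), and Psmb9, 1.48 (0.42 to 0.72), followed by Psmd11, a lid subunit, at 1.43. Psmb10 was 1.28-fold higher. Psmb5, Psmb6 and Psmb7 were at 0.978, 0.967 and 1.05 of the earlier level, and the median log2 difference was 0.04 for the other members and 0.05 for all genes.

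Markers of immune cells differed between the same 2 sections. The 10 leukocyte markers summed to 535 CPM at 22 weeks and 898 CPM at 30 weeks, 4 B and plasma cell markers to 11.4 and 85.4 CPM, and 11 MHC class I processing genes to 4645 and 6233 CPM. Between the earlier and later STAM section the same 3 lists went from 421 to 770, from 17.29 to 21.95 and from 4534 to 5160 CPM. The immunoproteasome sum was 152 and 158 CPM there. The 18 interferon-induced genes summed to 1185.5 and 888.6 CPM in STAM16w and STAM20w and to 606.4 and 736.4 CPM in DEN22w and DEN30w. The part of these lists in the immunoproteasome levels was not tested.

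Liver lobules are zoned, with glutamine synthesis and drug metabolism near the central vein and gluconeogenesis and urea synthesis near the portal tract. Spots were ranked by the difference between 10 pericentral and 10 periportal marker genes and cut into 3 equal zones, and the outer zones were compared with the section as a block. No proteasome gene was zoned beyond the test: 0 of 46 members were called in either direction by edgeR (3 at an unadjusted p under 0.05) and 0 by DESeq2, where 4.48% of genes were higher and 5.02% lower pericentrally. Of all 12694 genes, 3048 had an unadjusted p under 0.05. All 10 markers on each side were called, as their use in the score fixes. The highest member was Psmd5, a cap assembly chaperone, with 25.8, 37.0, 22.3 and 21.8 CPM in the pericentral zone of STAM16w, STAM20w, DEN22w and DEN30w. Its periportal levels were 21.7, 21.4, 17.2 and 17.2 CPM, lower in each of the 4 sections (log2 fold change 0.31, SE 0.11, edgeR adjusted p = 0.097). At the other end stood Psme2b at -0.17 and Psmd9 at -0.16. Psmb5, Psmb6 and Psmb7 were at 0.12, 0.0013 and 0.06, and the activators Psme1 to Psme4 at -0.04, 0.05, -0.09 and -0.15.

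The sign of the small zonal values depended on the scaling. In plain CPM, 31 of 46 members were higher in the pericentral zone in all 4 sections, and Psmb5, for instance, had 192, 280, 134 and 130 CPM there against 176, 198, 115 and 110 CPM periportally. Over all genes the median log2 value was 0.14 without a scaling factor and -0.02 with TMM, and the members' median moved with it, from 0.15 to -0.0050. Psmb8, Psmb9 and Psmb10 were at -0.08, -0.01 and -0.11 with TMM and at 0.07, 0.14 and 0.04 without. Relative to all genes, then, members lay near the median either way. Leukocyte markers were also zoned (6 of 10 higher pericentrally), and among the related genes Nfe2l2 was called higher (0.29, edgeR adjusted p = 0.037) and Ddi2, a protease that activates Nfe2l1 (-0.34, edgeR adjusted p = 0.033), and Pdia3, a peptide-loading chaperone (-0.30, edgeR adjusted p = 0.049), lower. No member was called for a zonal difference that differed between models (0 of 46 by edgeR and by DESeq2, 0.165% of genes called). At an unadjusted p under 0.05 edgeR had 4 of 46 members and 1721 of 12694 genes. The median difference between models in the pericentral-to-periportal value (STAM minus DEN+CCl4) was 0.16 for members and 0.04 over all genes. Depth differed between the zones in opposite ways by model. Pericentral and periportal spots had median depths of 10354 and 9298 UMIs in STAM16w and of 13039.5 and 12792 UMIs in STAM20w. In DEN22w these were 5793 and 9894 UMIs and in DEN30w 8244 and 10820 UMIs. The part of depth in the difference was not tested.

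The leukocyte comparison asked whether the immunoproteasome genes, which are abundant in immune cells, followed leukocyte transcripts across spots. The 20% of spots of each section with the highest score over 10 leukocyte markers were set against the other 80%. The marker list was 2.31- to 2.90-fold higher there, yet the immunoproteasome genes were nearly level: log2 fold changes were 0.07 for Psmb8 (edgeR adjusted p = 0.462), 0.03 for Psmb9 (edgeR adjusted p = 0.811) and 0.03 for Psmb10 (edgeR adjusted p = 0.844). In CPM, Psmb8 had 70.3, 77.4, 46.2 and 64.8 in the leukocyte-rich spots of STAM16w, STAM20w, DEN22w and DEN30w against 60.6, 73.6, 38.2 and 57.7 in the others. It was thus higher in plain CPM in 4 of 4 sections by small margins. Over all genes the median log2 value here was 0.08 without a scaling factor and -0.02 with TMM. Psmb9 was higher in 3 of 4, with 44.1 against 45.6 CPM in STAM16w. The constitutive genes they replace were at 0.06 (Psmb5), -0.06 (Psmb6) and -0.05 (Psmb7) on the log2 scale, and Psme1 to Psme4 lay between -0.07 and 0.0032. The highest member, Psmc3ip at 0.24 (edgeR adjusted p = 0.745), is no subunit and had few counts.

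Of 47 members, 2 (4.26%) were called lower in leukocyte-rich spots, near the 5.56% of all genes called lower, and 0 were called higher, where 6.82% of genes were. Psmd9 had 52.2, 52.6, 28.5 and 30.3 CPM in the leukocyte-rich spots and 56.6, 55.1, 33.9 and 35.6 CPM in the others (log2 fold change -0.24, SE 0.06, edgeR adjusted p = 0.0126). Psmg2, a core assembly chaperone, had 23.7, 26.0, 26.0 and 29.8 CPM against 28.3, 28.3, 34.4 and 29.9 CPM (-0.27, SE 0.07, edgeR adjusted p = 0.0151). Both were lower in all 4 sections, for Psmg2 by 0.1 CPM in DEN30w. DESeq2 called neither, and the calls were also lost when either DEN+CCl4 section was left out. They were lost as well when the scores came from spots thinned to 2000 UMIs, with shallower spots left out. In that setting the counts tested were not thinned. Of the 47 members, 37 had values below 0, with a median of -0.06 for those outside the immunoproteasome and -0.02 for all genes. The hepatocyte list was 0.888 to 0.970 of its level elsewhere in the same spots, and its part in these values was not tested. No member was called for a difference between models here (0 of 47 by edgeR and by DESeq2, 1.23% of genes called). At an unadjusted p under 0.05 edgeR had 0 of 47 members and 1196 of 13100 genes.

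With the 1% of spots of highest leukocyte score, a limit chosen after the scores had been compared in bands, the marker list was 3.86- to 5.10-fold higher. These spots were shallower than the others in each section. Their median depths were 8514, 6719.5, 4586 and 7079 UMIs in STAM16w, STAM20w, DEN22w and DEN30w, against 9734, 12808, 7350 and 9445 UMIs. The part of depth in the values at this limit was not tested. Psmb8 then had 109, 85.2, 94.4 and 106 CPM in the top spots against 62.2, 74.3, 39.2 and 58.7 CPM in the others, without a call (log2 fold change 0.43, SE 0.19, edgeR adjusted p = 0.153). Psmb9 was 1.21-, 1.13-, 2.07- and 1.44-fold in the top spots (0.15, SE 0.25, edgeR adjusted p = 0.835). Psmb10 was at 0.747, 1.36, 1.04 and 1.86 of the other spots' level (0.12, SE 0.23, edgeR adjusted p = 0.856). Of the immunoproteasome genes, then, Psmb8 and Psmb9 were higher in plain CPM in 4 of 4 sections and Psmb10 in 3 of 4, without a call. Plain CPM and the fitted values, which use TMM, differ in scaling. The median fitted value was -0.21 over the 46 members and -0.06 over all genes. Psmb5 was also higher in 4 of 4 (1.135-, 1.229-, 1.704- and 1.11-fold), as was Psme2 (1.004-, 1.024-, 1.583- and 1.162-fold). Psmb6 was at 1.098, 1.103, 0.80 and 1.127, Psmb7 at 0.90, 0.945, 1.257 and 0.875 and Psme1 at 1.483, 1.184, 0.929 and 1.231. Fitted values were 0.04, -0.21 and -0.33 for Psmb5 to Psmb7 and 0.0038, -0.10, 0.18 and -0.30 for Psme1 to Psme4. No member of 46 was called higher (4.02% of genes were) and 1 was called lower (5.94% of genes were). That member was Psmd14, with 32.8, 46.5, 15.7 and 16.3 CPM against 53.1, 72.1, 33.4 and 36.0 CPM (-1.07, SE 0.28, edgeR adjusted p = 0.0028), from 6, 12, 2 and 4 UMIs.

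The interferon comparison asked whether the same genes followed a local interferon response. The score used 18 interferon-induced genes, none of them a member. In the top 20% of spots that list was 1.63- to 1.81-fold higher. No member was called by edgeR (0 of 48 in either direction) or by DESeq2, where edgeR called 0.694% of genes higher and 0.64% lower. At an unadjusted p under 0.05 edgeR had 9 of 48 members and 1608 of 13120 genes. Psmb10 came nearest among the immunoproteasome genes: it had 49.1, 46.1, 45.0 and 57.2 CPM in the interferon-rich spots of STAM16w, STAM20w, DEN22w and DEN30w and 42.3, 41.8, 36.1 and 46.4 CPM in the others (log2 fold change 0.18, SE 0.05, edgeR adjusted p = 0.074). Psmb9 (0.09, edgeR adjusted p = 0.523) and Psmb8 (0.07, edgeR adjusted p = 0.564) were also higher in plain CPM in 4 of 4 sections. Over all genes the median log2 value here was 0.04 without a scaling factor and -0.01 with TMM. Psmc1, a cap ATPase, was at -0.15 (SE 0.04, edgeR adjusted p = 0.067). The activators Psme1 to Psme4 were at 0.04, -0.0064, -0.02 and -0.05, and Psmb5, Psmb6 and Psmb7 at -0.02, 0.02 and -0.09. The extremes were Psme2b at 0.30 and Psma8 at -0.42, both from few counts. Without STAM20w, 1 of 46 members was called, where 190 of 12934 genes were. By model, 0 of 48 members were called by edgeR or DESeq2, where edgeR called 0.122% of genes. At an unadjusted p under 0.05 edgeR had 2 of 48 members and 782 of 13120 genes there.

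The higher immunoproteasome levels lay at the upper end of the score. Between the lowest 50% and the top 1% of spots the immunoproteasome sum went from 149 to 218 CPM (STAM16w) and from 154 to 240 CPM (STAM20w) in STAM. In DEN+CCl4 it went from 96.7 to 201 CPM at 22 weeks and from 140.4 to 308 CPM at 30 weeks. In all 4 sections the top 1% stood highest of the bands. Levels of Psmb5, Psmb6 and Psmb7 showed no such common course.

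**Figure D3:**
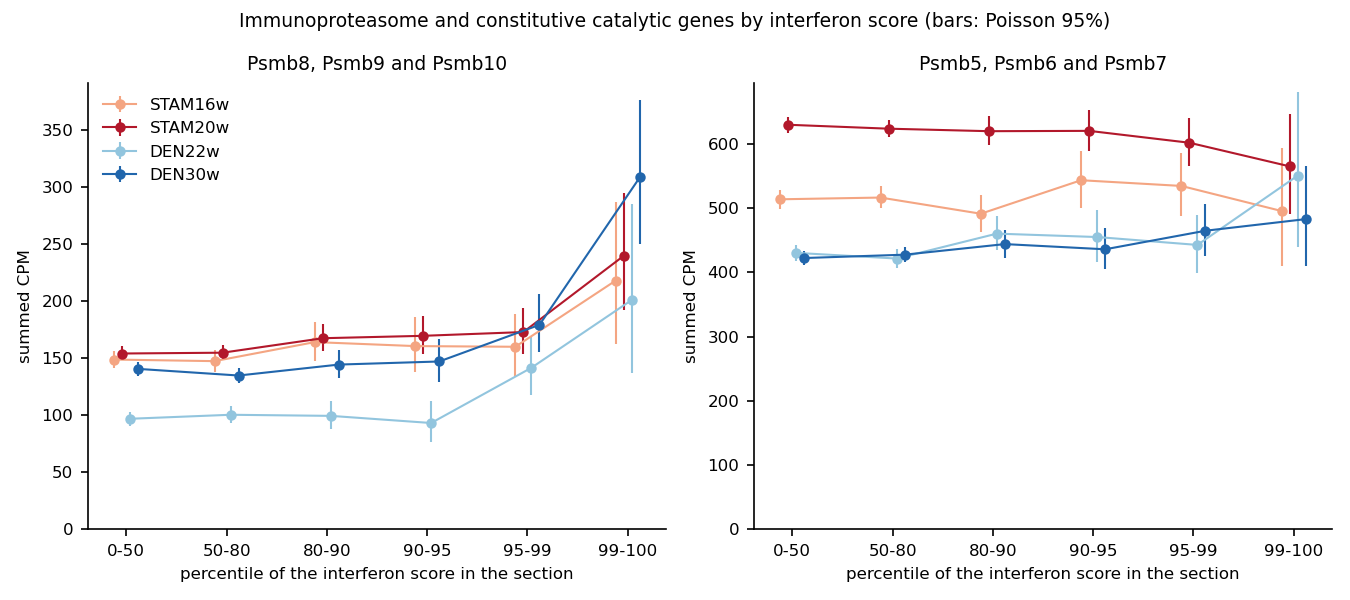
Summed CPM of the 3 immunoproteasome genes (left) and of Psmb5, Psmb6 and Psmb7 (right) in bands of spots ordered by interferon score, per section, with exact Poisson 95% intervals. The immunoproteasome sum is highest in the top 1% of spots in each section (201 to 308 CPM), while the constitutive sum has no common direction.

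In the top 1% of spots (21, 28, 27 and 30 spots), a limit chosen after these bands had been seen, Psmb10 had 68.3, 78.0, 71.3 and 124 CPM against 43.5, 42.5, 37.7 and 47.8 CPM in the other spots. That is 1.57-, 1.84-, 1.89- and 2.59-fold in STAM16w, STAM20w, DEN22w and DEN30w, and a fitted log2 fold change of 0.86 (SE 0.19, edgeR adjusted p = 0.00072). Psmb8 had 111, 94.2, 84.2 and 124 CPM against 62.1, 74.2, 39.2 and 58.5 CPM (0.65, SE 0.17, edgeR adjusted p = 0.016). Both were higher in 4 of 4 sections, and these 2 of 46 members were called where 0.748% of genes were. Psmb9 was at 0.847 of the other spots' level in STAM16w, from 9 UMIs, and 1.65- to 1.99-fold higher in the other three, and was not called (0.45, SE 0.22, edgeR adjusted p = 0.509). No member was called lower (0.515% of genes were), and Psmb5, Psmb6 and Psmb7 were at -0.21, 0.06 and -0.26. Psme1 to Psme4 were at 0.23, 0.18, -0.11 and -0.44, also without a call. Psme1 was 1.418-, 1.276-, 1.21- and 1.272-fold and Psme2 1.465-, 1.035-, 1.303- and 1.332-fold in the top spots. The highest member was Psme2b at 2.02 (SE 0.75, edgeR adjusted p = 0.243), from few counts, and the lowest Psmd5 at -0.91 (SE 0.37, edgeR adjusted p = 0.326).

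The top-1% calls leaned on DEN30w, where 15 of the 30 top spots belonged to the small group of spots described next. Without those spots Psmb10 was at 0.65 (edgeR adjusted p = 0.112) and Psmb8 at 0.53 (edgeR adjusted p = 0.180), and without DEN30w as a whole they were at 0.65 (edgeR adjusted p = 0.269) and 0.51 (edgeR adjusted p = 0.439). The call of Psmb8 was also lost without STAM16w (0.62, edgeR adjusted p = 0.139) and without DEN22w (0.60, edgeR adjusted p = 0.060), while that of Psmb10 held there. DESeq2 called Psmb10 alone (0.94, adjusted p = 0.011). The leukocyte list was 1.14-, 1.01-, 1.68- and 1.29-fold in these spots and the 5 T and NK cell markers 2.27-, 2.34-, 6.72- and 4.77-fold from very low levels (8.54 to 22.2 CPM). Their part in the result was not tested.

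Clustering the spots of each section without the 49 genes set apart 17 spots of DEN30w, cluster 5, led by the interferon-induced genes Rsad2, Cmpk2, Ifit3, Ifit1 and Ifit3b. In these spots the immunoproteasome genes summed to 366 CPM (62 UMIs, exact Poisson 95% interval 281 to 469) against 141 CPM in the rest of the section, a ratio of 2.60 (1.99 to 3.34). Psmb10 had 154 CPM from 26 UMIs, a ratio of 3.20 (2.08 to 4.70). Psmb8 had 136 CPM from 23 UMIs (2.31, 1.46 to 3.48), and Psmb9 76.7 CPM from 13 UMIs (2.27, 1.20 to 3.89). All 3 intervals lay above 1, and their share of the proteolytic genes' UMIs was 42.76% (34.59 to 51.23%).

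The rest of the proteasome did not follow. The 46 other members summed to 1.04 (0.96 to 1.12) of the level elsewhere, and Psmb5, Psmb6 and Psmb7 to 1.14 (0.91 to 1.42). Intervals lay above 1 for 2 of the 46, the activator Psme1 (1.40, 1.01 to 1.91) and the chaperone Psmg2 (2.39, 1.23 to 4.18, from 12 UMIs), and below 1 for Psmd11 (0.333, 0.091 to 0.853, from 4 UMIs). Psme2 was at 1.48 (0.83 to 2.45). Across 46 genes some intervals miss 1 by counting error alone, and this is 1 section with no replicate.

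Of the 11 genes of MHC class I processing, 5 had intervals above 1 in the 17 spots and 0 below, and the list summed to 1.19 of the level elsewhere. The peptide transporter Tap1 was at 3.73 (2.51 to 5.35), its partner Tapbp at 2.09 (1.51 to 2.83) and the MHC class I transactivator Nlrc5 at 2.10 (1.11 to 3.60). The class I genes H2-D1, B2m and H2-K1 were at 1.437 (1.249 to 1.646), 1.134 (1.022 to 1.255) and 1.10 (0.98 to 1.24), and Tap2 was at 1.27 (0.58 to 2.41). Erap1, Canx, Pdia3 and Calr lay between 0.982 and 1.45 with intervals that include 1. Among interferon-induced genes, Isg15 was at 53.8 and Rsad2 at 114. The 10 leukocyte markers summed to 968 CPM against 898 CPM elsewhere, with 1 of 10 intervals above 1 (Cd52, 2.21, 1.14 to 3.88), Ptprc at 1.16 (4 UMIs), Lyz2 at 1.04 and Cd53 at 0 UMIs. The 5 T and NK cell markers summed to 35.4 against 4.67 CPM, a ratio of 7.59 from 6 UMIs. Of these, Gzma was at 19.5 (2.22 to 79.8), Cd8a at 9.31 (0.23 to 57.6), Cd3d at 8.91 (0.22 to 54.9) and Nkg7 at 6.72 (0.80 to 25.3), and Cd3e had 0 UMIs, with an interval of its ratio up to 22.8. T and NK cell transcripts were thus too few here to be measured well, and their part in the immunoproteasome levels was not tested. The 5 macrophage markers summed to 1.01 of the level elsewhere, with 1 interval above 1 (Clec4f, 1.566, 1.002 to 2.335) and 0 below. The 5 hepatocyte genes summed to 1.055 of it. Intervals lay above 1 for 2 of them, Alb (1.09, 1.06 to 1.12) and Ttr (1.05, 1.01 to 1.10), and below 1 for 1, Apoa1 (0.91, 0.84 to 0.99).

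The difference spanned a short distance. Spots 1 step away on the grid (47 spots) had an immunoproteasome sum of 170 CPM, those 2 steps away 159 CPM, and those at 3 to 4, 5 to 9 and 10 or more steps 140.1, 136 and 140.5 CPM. The 17 spots formed 7 touching groups. The largest, with 10 spots, had 354 CPM and the 7 spots outside it 401 CPM, so both carried the higher level. Leaving out the spot with the most immunoproteasome UMIs (11) gave 340 CPM (253 to 447).

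**Figure D4:**
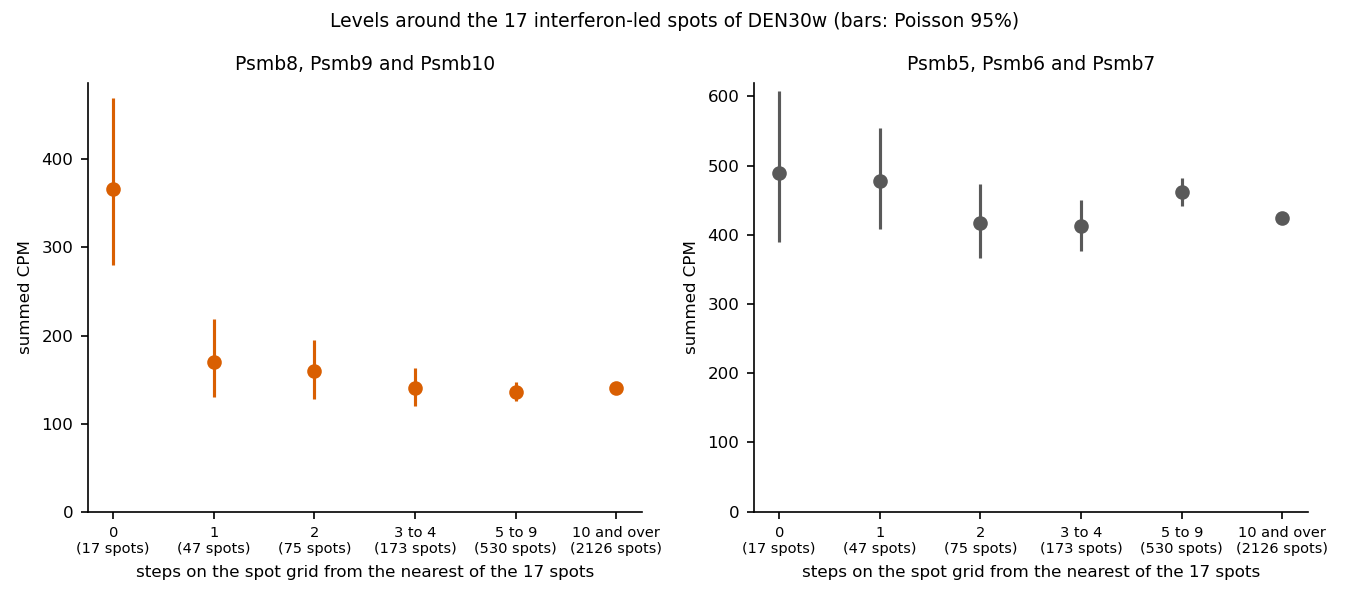
Summed CPM of the immunoproteasome genes (left) and of Psmb5, Psmb6 and Psmb7 (right) by distance on the spot grid from the 17 interferon-led spots of DEN30w, with exact Poisson 95% intervals. The left panel falls from 366 CPM in the 17 spots to 170 CPM in the ring next to them, while the right panel stays between 413 and 490 CPM.

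Other clusters showed smaller differences, which have no test because each lies in 1 section. In STAM20w, cluster 0 (181 spots led by Cpe and Slc7a11) had 37 of 43 other members above the rest of the section, with a median log2 ratio of 0.22. Psmd8 had 385 CPM there against 225 CPM and Psmb5 had 318 against 222 CPM. Psma8, the testis α subunit, had 8.31 CPM (39 UMIs) against 1.93 CPM, and Psme4 ran the other way at 27.9 against 37.1 CPM. The immunoproteasome genes stood at log2 ratios of -0.12, -0.06 and 0.19 for Psmb8, Psmb9 and Psmb10 in the same spots. Median depth there was 25854 UMIs per spot against 12761 in the section as a whole. A high count of members was not particular to this cluster. It was 36 of 43 in cluster 2 and 31 of 43 in cluster 3 of STAM20w, and 36 of 42 in cluster 0 of STAM16w. In cluster 0 of DEN22w and cluster 3 of DEN30w it was 35 of 42. The counts rest on plain CPM and have no share over all genes beside them.

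Cluster 1 of STAM20w (272 spots led by Gm14210 and Cib3) had 9 of 43 other members above the rest, where cluster 7 had 8 of 43. Its median log2 ratio was the lowest of the section's clusters, -0.24. Cluster 4 (223 spots led by H19 and including Afp, both fetal liver genes) had 100.3 against 72.1 CPM for Psmb8, 59.3 against 41.3 CPM for Psmb10 and 99.1 against 68.5 CPM for Psmg4, while its other members had a median of 0.01. Psmb9 was level there (0.01). In STAM16w the small H19-led cluster 5 (14 spots) had 97.6 CPM of Psmb9 from 13 UMIs against 45.0 CPM, without a like value for Psmb10 (-0.55). The immunoglobulin-led cluster of DEN30w (cluster 3, 672 spots led by Ighm and Ighg2b) had Psmb8 at 66.9 against 56.8 CPM and Psmb10 at 56.6 against 46.2 CPM. Their log2 ratios were 0.24 and 0.29, and that of Psmb9 was 0.16. Most other members were also above the rest there (35 of 42, median 0.10), with Psmd1 highest at 0.32. Of the 24 clusters, the 17 interferon-led spots of DEN30w were the one in which Psmb8, Psmb9 and Psmb10 each exceeded a log2 ratio of 1.

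**Figure D5:**
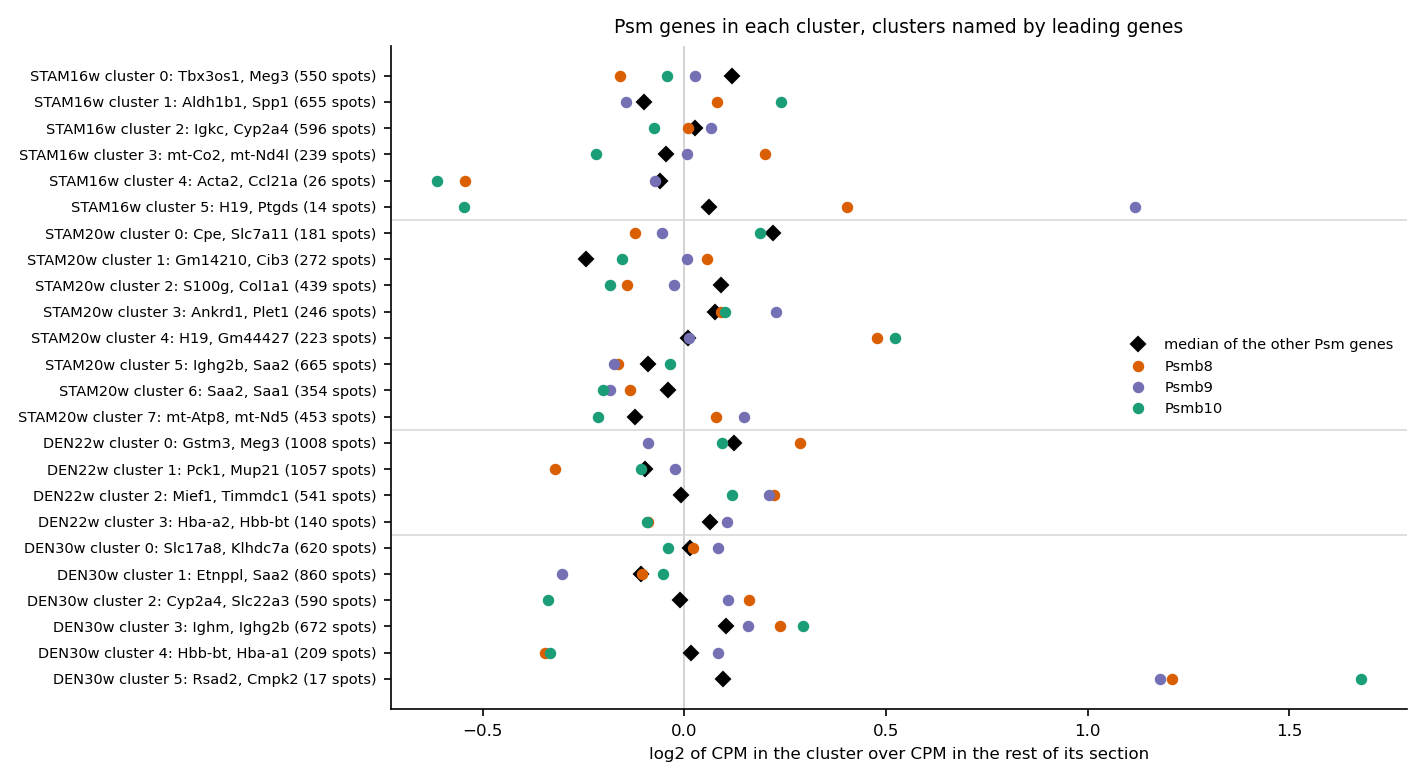
log2 of the CPM in each cluster over the CPM in the rest of its section, for Psmb8, Psmb9, Psmb10 and the median of the other members; clusters carry their 2 leading genes and their number of spots. The interferon-led cluster of DEN30w stands at 1.18 to 1.68 for the 3 immunoproteasome genes and at 0.09 for the other members' median.

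From spot to spot the members varied little beyond counting noise. The ratio of their observed to Poisson variation across spots of a section (1 for pure counting noise) had medians of 1.03 to 1.05, against 1.06 to 1.09 over all genes compared. Psmd8 in STAM20w had the highest value of a member, 1.28, where the periportal gene Cyp2f2 reached 4.01. Members and genes compared were those with at least 20 CPM. Neither these genes nor Cyp2f2 were matched to the members in level. A UMI of any immunoproteasome gene was present in 72.9, 75.3, 51.6 and 68.6% of spots in STAM16w, STAM20w, DEN22w and DEN30w. After thinning each spot to 2000 UMIs, which left out 42, 210, 199 and 338 shallower spots, the shares were 26.2, 26.5, 17.8 and 25.7%, so DEN22w stayed lowest at equal depth while the other three lay together.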

How the data were processed

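Raw UMI counts per gene and spot were used as the authors deposited them; per the submitters' processing notes they were made with Space Ranger 1.3.1 and STAR on mm10. Spots with at least 500 UMIs and 250 genes were kept. Counts were summed per section or per spot class of a section and tested with edgeR 4.0.16 (TMM, filterByExpr, quasi-likelihood test, Benjamini-Hochberg over all genes tested, threshold 0.05; R 4.3.3), with the section as a block where classes were compared and DESeq2 1.42.0 as an alternative. The SE is the fold change divided by the root of the F statistic. The scripts were tested on simulated counts. Spot scores were means of log-normalized marker levels, each gene standardized within its section, and their classes were 3 equal zones, the top 20% or, as an addition after seeing the data, the top 1%. Spots were clustered in each section without the members (scanpy 1.11.5, Leiden resolution 0.6, 2000 variable genes, 20 components, 15 neighbours), since the earlier clusters named in the plan were not used here; clusters carry their leading genes and no cell type name, and doublets do not apply to spots. Members and lists were chosen with earlier results of these data known. In the tested comparisons of models and spot classes, values are given for the immunoproteasome genes, Psmb5 to Psmb7 and Psme1 to Psme4. They are also given for called members and for the highest and lowest fold change. Psma5, Psmd14, Psmd9 and Psmd8 in the model comparison, Psmc1 and the genes named in the clusters were chosen after their values were seen. Intervals are 95% exact Poisson or Clopper-Pearson intervals. Protein sequences were not used here.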

Additional observations from a re-analysis of the deposited data

How the results depend on the processing

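The number of sections, 2 per model, limits every test. The counts of members called are given with the counts over all genes in brackets. Between models 0 of 48 members were called (63 of 14417 genes). This became 10 of 48 with DESeq2 (1517 of 14417) and 5 of 49 without a filter on low counts (1872 of 20484). In the zone comparison the count was 0 (1206 of 12694 genes). It became 4 without a scaling factor (1403 of 12694) and 1 without the filter (1919 of 19926). The values of Psmb8, Psmb9 and Psmb10 turned to 0.073, 0.14 and 0.044 without a scaling factor. That of Psmb9 also turned, ranging from -0.032 to 0.034 as each section was left out (0.025 without STAM20w, 0.034 without DEN22w), and to 0.011 with no section block. In the leukocyte-rich comparison 2 members were called (1623 of 13100 genes). The count was 1 without a scaling factor (1475 of 13100), 4 without the filter (2188 of 20484) and 1 with the top 1% of spots (1245 of 12499). It was 0 with DESeq2 (611 of 13100), no section block (0 of 13100), thinned scores (937 of 13043) or depth-matched spots (1046 of 11858). Leaving out 1 section gave 0 to 2 members (578 to 1756 genes). There Psmb8 turned to -0.00038 with the top 10% of spots, Psmb9 to -0.0068 without the filter and -0.021 without STAM20w (-0.021 to 0.069 as each section was left out), and Psmb10 to -0.013 without the filter. In the interferon-rich comparison 0 members were called (175 of 13120 genes). The count was 1 without a scaling factor (217 of 13120), without the filter (376 of 20484), with all spots over tissue (188 of 13154) or with the top 10% (173 of 13060). It was 2 with the top 1% (157 of 12434). That became 1 with depth-matched spots (36 of 3650), thinned scores (151 of 12441) or DESeq2 (61 of 12434). Leaving out 1 section gave 0 to 1 members with the top 20% (71 to 190 genes). With the top 1% it gave 0 to 2 (84 to 165 genes). The 3 members higher by 1.5-fold in STAM (971 of 5583 genes) became 0 at 2-fold (363 of 5583) and 1 with TMM-scaled totals (666 of 5750). Where a cause is not part of the alternative itself, the cause was not tested. Of the alternatives for these counts, 47 gave values within 1.5 times the main one and 28 did not. No paired analysis was possible because the replicate numbers of the 2 models stand for different weeks and do not pair their sections; the spot classes were compared within sections through the section block.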
